A study of Mus musculus with 4 samples.

Results

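The genes described here are 10 members of the alpha- and beta-tubulin family, chosen by symbol out of 22328 genes in the deposited tables: the alpha-tubulins Tuba1a, Tuba1b, Tuba1c, Tuba4a and Tuba8, and the beta-tubulins Tubb2a, Tubb2b, Tubb3, Tubb4a and Tubb5. The set was selected on measured values of these libraries, among them the hippocampal ratio of Tuba1c, which had 196 reads in the F1m-GCS library and 58 in the F1m-CON library, so the ratios of the members are given as a description. RNA-seq was done on 4 mouse samples, 1 library for each group, to ask how choline supply bears on gene expression. The hippocampus libraries came from F1m-GCS offspring, whose dams ate a diet with 5 g/kg choline chloride between embryonic day 9 and birth, and from F1m-CON offspring, whose dams ate 1.1 g/kg over the same days. All offspring ate a basal diet after birth and went through mood-related behaviour tests at 2 months of age. The other pair came from HT22, an immortalised line derived from mouse hippocampal neurons, kept for 48 h in 70 µM choline chloride (SUP) or 5 µM choline chloride (CON). The labels give neither a strain nor the number of animals or dishes behind a library, and the age at tissue collection is known only as after those tests.

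Alpha- and beta-tubulin join as a dimer, and dimers stack into microtubules, the hollow filaments that carry transport in axons and dendrites and form the spindle of dividing cells. Mammals hold several genes for each partner, whose proteins are almost alike in the core and differ most in an acidic C-terminal tail that motors, microtubule-associated proteins and modifying enzymes read. Tuba1a, Tubb2a, Tubb2b, Tubb3 and Tubb4a are enriched in brain, Tuba1b, Tuba1c and Tubb5 are made in most tissues, and mutations of the human counterparts of Tuba1a, Tubb2b and Tubb3 cause malformations of the cortex.

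The Tuba1 genes are near copies of each other, and this decides how far their reads can be assigned. They lie on chromosome 15 in mm10, Tuba1b at chr15:98931425-98934565 and Tuba1a at chr15:98949841-98953551 on the minus strand, and Tuba1c at chr15:99029891-99038105 on the plus strand, with 15276 bases between Tuba1b and Tuba1a and 76340 bases between Tuba1a and Tuba1c. Over the coding sequence of GENCODE M21, Tuba1a and Tuba1b shared 98.3% of bases, Tuba1b and Tuba1c 97.9%, and Tuba1a and Tuba1c 97.1%. The longest run of bases shared by all of them at the same place covered 239 bases of the coding sequence.

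The beta-tubulin genes are less alike, apart from Tubb2a and Tubb2b, which share 96.5% of coding bases and sit 49000 bases apart on chromosome 13, at chr13:34074301-34078008 and chr13:34127008-34130354, both on the minus strand. Other pairs of beta members shared 82.3% to 84.6% of aligned coding bases. Their last 60 coding bases, stop codon included, are shown because they encode the tail that tells the isotypes apart. They are written 5′ to 3′ in the sense of the gene, and capitals mark bases that differ from Tubb5, or have no partner in it, in a pairwise alignment of the whole coding sequences. In mm10 the stretches lie on the plus strand for Tubb3 and on the minus strand for the others, at chr17:35834982-35835041 in Tubb5, chr13:34074468-34074527 in Tubb2a, chr13:34127471-34127530 in Tubb2b, chr8:123421623-123421682 in Tubb3 and chr17:57080690-57080749 in Tubb4a. Tubb4a differed from Tubb5 at 10 of these bases, Tubb2a at 18, Tubb2b at 19 and Tubb3 at 32.
Tubb5: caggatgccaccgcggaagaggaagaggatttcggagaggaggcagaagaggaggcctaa
Tubb2a: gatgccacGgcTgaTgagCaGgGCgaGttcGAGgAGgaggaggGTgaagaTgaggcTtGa
Tubb2b: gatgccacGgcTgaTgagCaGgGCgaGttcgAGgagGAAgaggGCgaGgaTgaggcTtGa
Tubb3: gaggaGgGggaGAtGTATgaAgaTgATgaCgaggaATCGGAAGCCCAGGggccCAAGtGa
Tubb4a: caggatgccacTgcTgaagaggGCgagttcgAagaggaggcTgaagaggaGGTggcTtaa

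Read assignment follows this likeness. With up to 2 mismatches, the limit of the authors' alignment, 96.8% of the 100-base windows of the Tuba1c coding sequence (1211 of 1251) also occurred in a transcript of another gene, against 100% of those of Tuba1b and 93.3% of those of Tuba1a. The other genes that held windows of Tuba1c numbered 13, of which 10 are annotated as processed pseudogenes. Tuba1b held 1106 of the windows and Tuba1a held 1006. Gm49450, annotated as protein coding on chromosome 15 and absent from the deposited tables, held 702. Of the beta members, 79.7% of the windows of Tubb2b and 62.1% of those of Tubb2a occurred elsewhere, and Tubb3, Tubb4a, Tubb5, Tuba4a and Tuba8 had 0% at this length. The annotated span of Tuba4a overlaps that of Stk16 on the other strand, and the strand setting of the counting is not stated, so reads of that overlap cannot be told apart. With untranslated regions included 64.5% of the windows of Tuba1c occurred elsewhere. Without mismatches the share for Tuba1c was 80.4% over the coding sequence and 53.4% over the whole transcript. The sources used here do not state the read length. The count columns are headed as uniquely mapped reads, so reads that fit several copies equally well may be missing from the counts. How many reads of Tuba1a, Tuba1b, Tuba1c, Tubb2a and Tubb2b were lost or placed on another copy is not known. Their single-gene values are therefore uncertain. Their sums are given beside them, but sums do not restore reads that were left out.

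**Figure D1:**
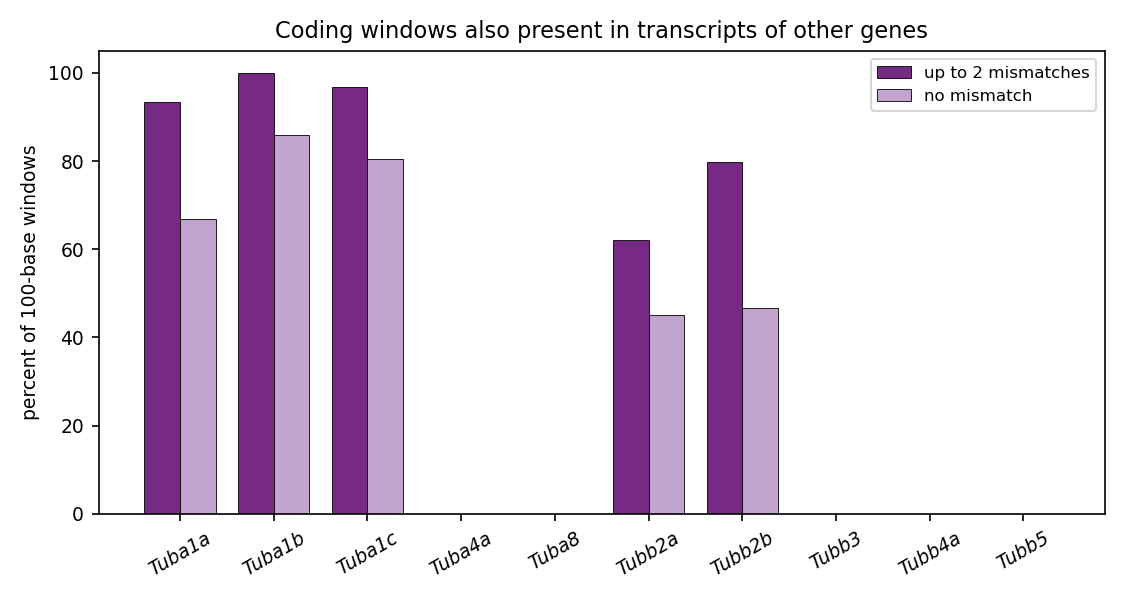
Percent of 100-base windows of each coding sequence (vertical axis) that also occur in a transcript of another gene, with up to 2 mismatches (dark bars) or none (light bars), for the 10 tubulin genes. Tuba1b, Tuba1c and Tuba1a stand at 100%, 96.8% and 93.3% with mismatches, Tubb2b and Tubb2a at 79.7% and 62.1%, and the other 5 genes at 0%.

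Depth was 30265820 counted reads in the F1m-GCS library, 31175015 in F1m-CON, 13192007 in HT22 SUP and 18305096 in HT22 CON. Counted reads made up 79.0% and 79.4% of the uniquely mapped reads of F1m-GCS and F1m-CON hippocampus, and 63.1% and 72.9% of those of SUP and CON cells. Pan-neuronal markers, among them Rbfox3, Snap25 and Camk2a, summed to 7547 and 7752 RPKM (reads per kilobase of coding sequence and 1000000 uniquely mapped reads) in F1m-GCS and F1m-CON hippocampus. In HT22 the same 12 genes summed to 111 RPKM in SUP cells and 51.2 RPKM in CON cells, with none at 0 reads, which is 1.46% and 0.669% of the mean hippocampus level, so the cells hold little of the RNA that defines mature neurons. Dividing-cell markers summed to 699 and 802 RPKM in SUP and CON cells, against 21.8 and 20.4 RPKM in the F1m-GCS and F1m-CON hippocampus. The tables of the hippocampus and of HT22 were normalized separately, so levels set across them are a description. In tissue, fewer cells of a type and less RNA per cell cannot be told apart.

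In hippocampus the neuronal beta isotype Tubb4a, which is also made in oligodendrocytes, was the highest of the 10, at 408 RPKM in F1m-GCS and 400 RPKM in F1m-CON hippocampus. Tubb2a followed with 270 RPKM in F1m-GCS and 270 RPKM in F1m-CON, and Tubb5, the beta isotype made in most tissues, with 259 RPKM in F1m-GCS and 263 RPKM in F1m-CON. Their 95% counting intervals were apart in F1m-GCS (265 to 274 RPKM for Tubb2a and 255 to 264 RPKM for Tubb5) and overlapped in F1m-CON. Next came Tuba1a, the main alpha isotype of postmitotic neurons, at 232 RPKM in F1m-GCS and 245 RPKM in F1m-CON, and Tuba4a, whose protein is made without the C-terminal tyrosine of other alpha-tubulins, at 214 RPKM in F1m-GCS and 213 RPKM in F1m-CON. Tubb3, a beta isotype used as a marker of neurons, had 136 RPKM in F1m-GCS and 140 RPKM in F1m-CON. Tubb2b was at 88.7 RPKM in F1m-GCS and 93.2 RPKM in F1m-CON, and Tuba1b at 75.0 RPKM in F1m-GCS and 72.9 RPKM in F1m-CON. Tuba8 and Tuba1c were far below, Tuba8 at 5.07 RPKM in F1m-GCS and 4.85 RPKM in F1m-CON, and Tuba1c at 3.79 RPKM in F1m-GCS and 1.09 RPKM in F1m-CON. The order of the 10 genes was the same in both hippocampus libraries, and Tubb2a and Tubb5 in F1m-CON were the sole neighbours whose counting intervals overlapped.

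In HT22 the order was another. Tubb5 had 1162 RPKM in SUP cells and 1411 RPKM in CON cells, above every other member. Tuba1b had 233 RPKM in SUP and 294 RPKM in CON cells, Tuba1a 207 RPKM in SUP and 260 RPKM in CON cells, and Tuba1c 58.0 RPKM in SUP and 69.6 RPKM in CON cells. Below these stood Tubb2a, with 52.2 RPKM in SUP and 58.9 RPKM in CON cells, and Tuba4a, with 16.8 RPKM in SUP and 20.3 RPKM in CON cells. Tubb3, Tubb2b and Tubb4a lay between 5.15 and 5.81 RPKM in SUP cells, where their counting intervals overlapped, and at 9.33, 7.17 and 5.34 RPKM in CON cells, where they did not. Tuba8 had 0 reads in both HT22 libraries, where 3 reads, the limit that a count of 0 allows, would be 0.106 RPKM in SUP and 0.0885 RPKM in CON cells. All RPKM of HT22 rest on uniquely mapped reads, of which the SUP library had the smaller counted share, so RPKM in SUP and CON cells are not compared directly here.

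**Figure D2:**
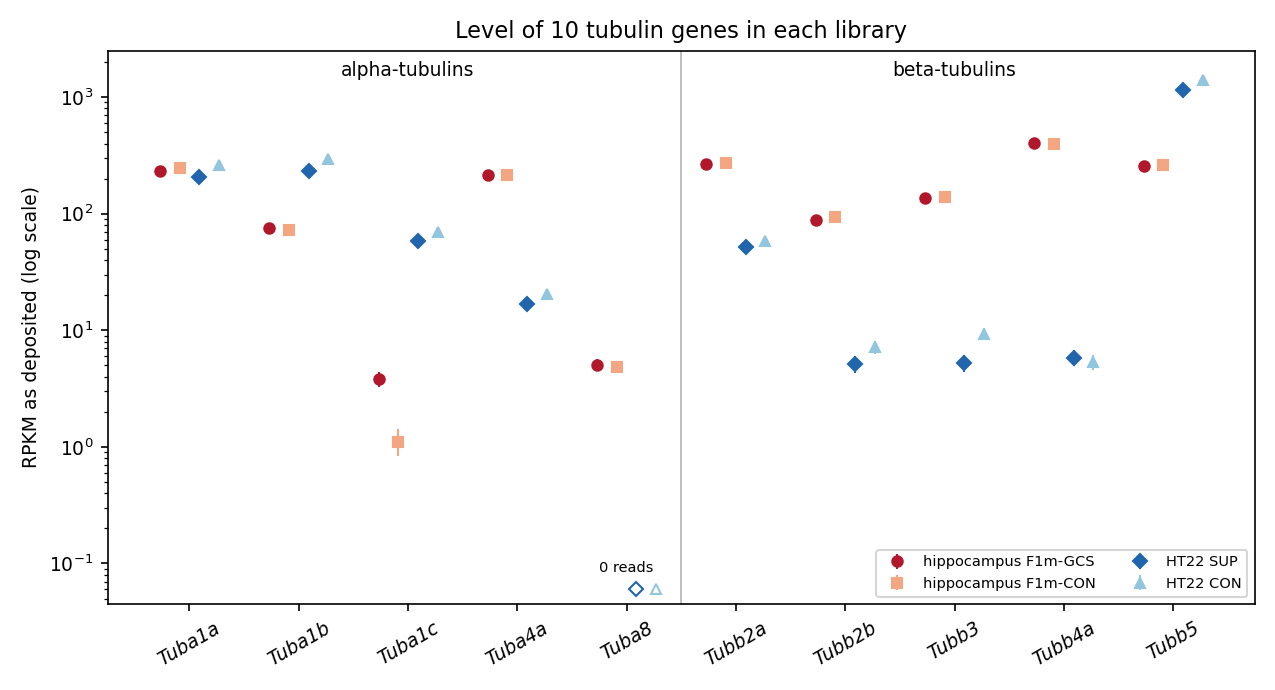
Deposited RPKM (vertical axis, log scale) of each tubulin gene in the 4 libraries, alpha-tubulins left and beta-tubulins right, with 95% Poisson counting intervals, and open symbols at the foot for 0 reads. The 2 hippocampus libraries nearly coincide except at Tuba1c (3.79 RPKM in F1m-GCS and 1.09 RPKM in F1m-CON), and the HT22 libraries lie above hippocampus for Tuba1b, Tuba1c and Tubb5.

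Set against the mean of the hippocampus libraries, Tuba1c was the member with the highest relative level in the cell line, 23.7-fold above it in SUP and 28.5-fold above it in CON cells. That mean rests on hippocampus libraries that differ: SUP cells were 15.3-fold above F1m-GCS alone and 53.0-fold above F1m-CON alone, and CON cells 18.3-fold above F1m-GCS alone and 63.5-fold above F1m-CON alone. Tubb5 was 4.45-fold above it in SUP and 5.40-fold above it in CON cells, and Tuba1b 3.15-fold in SUP and 3.98-fold in CON cells. These are the 3 widely expressed isotypes. Tuba1a reached 86.7% of the hippocampus level in SUP and 109% in CON cells, although it is counted among the brain-enriched isotypes. All levels and folds of this paragraph use RPKM, which rest on uniquely mapped reads. Of these 63.1% were counted in SUP and 72.9% in CON cells, against 79.0% in F1m-GCS and 79.4% in F1m-CON hippocampus. On counted reads (CPM, defined below) Tuba1a had 446 in SUP and 482 in CON cells, against 400 in F1m-GCS and 417 in F1m-CON. Whether Tuba1a lay below hippocampus in SUP cells thus depends on the scale. The other brain-enriched members were all below hippocampus: Tubb2a at 19.3% in SUP and 21.8% in CON cells, Tubb2b at 5.66% in SUP and 7.88% in CON cells, Tubb3 at 3.77% in SUP and 6.77% in CON cells, and Tubb4a at 1.44% in SUP and 1.32% in CON cells. Tuba4a stood at 7.87% in SUP and 9.54% in CON cells, and Tuba8 was at least 46.6-fold lower in SUP and at least 56.1-fold lower in CON cells, from 3 reads per library. Tubb6, a tubulin outside the 10 that was measured in the same tables, was 55.7-fold higher in SUP and 63.3-fold higher in CON cells than in hippocampus, and Tubb4b was 2.08-fold higher in SUP and 2.32-fold higher in CON cells.

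The levels of Tubb3, Tubb2b and Tubb4a in HT22 stand beside low levels of other hippocampus-high genes in both cell libraries. A class of 644 genes, none of them a member, was defined by a hippocampus level of 50 CPM (counts per 1000000) or more and an HT22 level under 1/100 of it. For this class the pooled HT22 level was 0.801% of that in hippocampus in SUP cells and 0.336% in CON cells. The cut that defines the class holds its values low, so the members are not compared with it. Whether that RNA was made by the cells or came from elsewhere was not tested.

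Isotype makeup, as shares of the reads of each family, summarises this difference. Tuba1a held 42.8% of alpha-tubulin reads in F1m-GCS and 44.6% in F1m-CON hippocampus, Tuba4a 41.7% in F1m-GCS and 41.0% in F1m-CON, and Tuba1b 13.8% in F1m-GCS and 13.3% in F1m-CON. In HT22 Tuba1b held 45.2% of alpha reads in SUP and 45.6% in CON cells, Tuba1a 40.1% in SUP and 40.3% in CON cells, Tuba1c 11.2% in SUP and 10.7% in CON cells, and Tuba4a 3.44% in SUP and 3.34% in CON cells. Beta-tubulin reads of hippocampus were spread over all 5 members, with Tubb4a at 35.0% in F1m-GCS and 34.2% in F1m-CON, Tubb2a at 23.2% in each, Tubb5 at 22.3% in F1m-GCS and 22.5% in F1m-CON, Tubb3 at 11.8% in F1m-GCS and 12.1% in F1m-CON, and Tubb2b at 7.64% in F1m-GCS and 7.998% in F1m-CON. In HT22 Tubb5 alone held 94.4% of beta reads in SUP and 94.6% in CON cells, and Tubb2a 4.25% in SUP and 3.96% in CON cells, with Tubb3, the largest of the rest in CON cells, at 0.428% in SUP and 0.634% in CON cells.

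**Figure D3:**
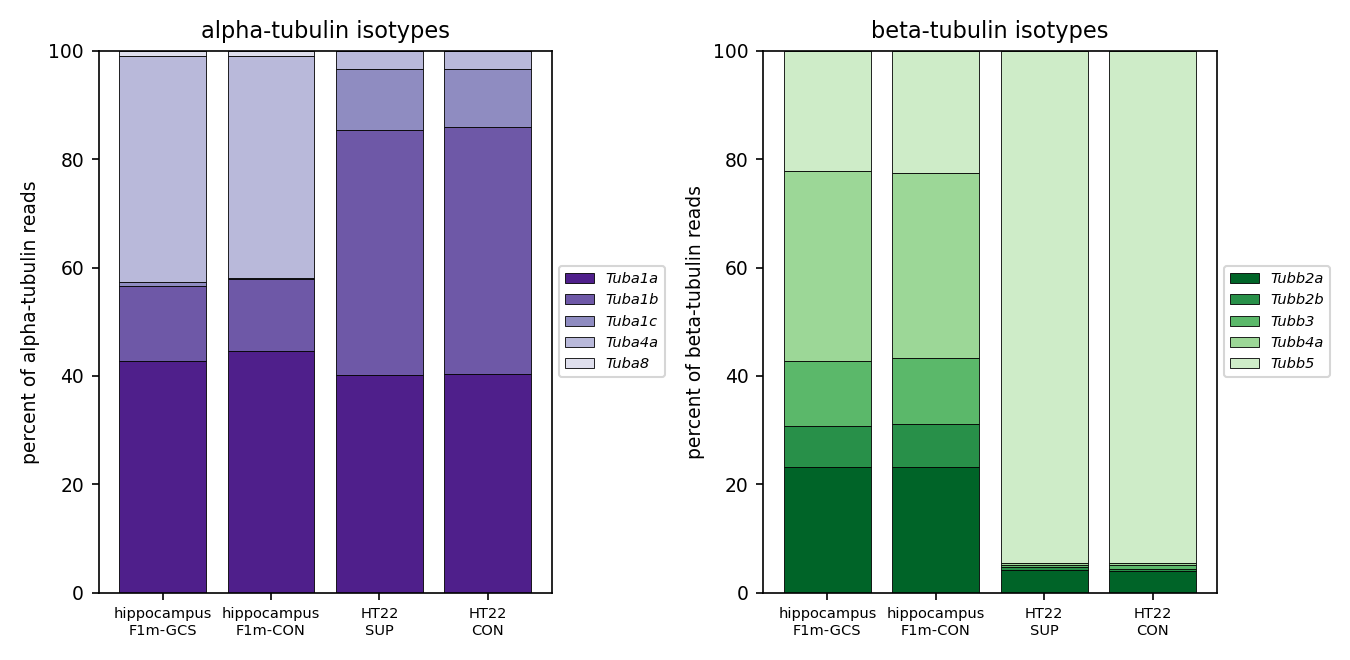
Percent of alpha-tubulin reads (left panel) and of beta-tubulin reads (right panel) that fell on each isotype, stacked to 100 in each of the 4 libraries. Tuba4a takes 41.7% of alpha reads in F1m-GCS and 41.0% in F1m-CON hippocampus, and Tubb5 takes 94.4% of beta reads in SUP and 94.6% in CON HT22 cells.

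As a whole the family had a like weight in each pair of libraries. The 10 members took 0.289% of counted reads in F1m-GCS and 0.290% in F1m-CON hippocampus, and 0.371% in SUP and 0.393% in CON cells. Summed RPKM of the beta members were 2.19 times those of the alpha members in F1m-GCS and 2.17 times in F1m-CON hippocampus, and 2.39 times in SUP and 2.32 times in CON cells. The 5 brain-enriched isotypes together had 3.36 times the RPKM of the 3 widely expressed ones in F1m-GCS and 3.41 times in F1m-CON hippocampus. The relation was turned round in HT22, where the widely expressed isotypes had 5.28 times the RPKM of the brain-enriched ones in SUP and 5.21 times in CON cells.

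Within hippocampus, Tuba1c was the one member of 10 that differed by at least 1.5-fold between the libraries. It had 196 reads (3.79 RPKM) in F1m-GCS and 58 reads (1.09 RPKM) in F1m-CON hippocampus, a log2 ratio of 1.78 with a 95% counting interval of 1.38 to 2.26, or 3.42-fold. This value took part in the choice of the genes. Of 13392 genes measured (at least 50 reads in 1 of the 2 libraries) 1.81% were at least 1.5-fold higher in F1m-GCS and 0.911% at least 1.5-fold lower, so 1 of 10 higher and 0 of 10 lower is given as a count and nothing is read from it. The ratio uses counts scaled to library size with a prior count of 2, and its interval covers counting error only. With 1 library a group there is no spread between animals to set it against and no test.

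The near copies of Tuba1c did not differ in the same way. Tuba1a had 12044 reads in F1m-GCS and 13038 in F1m-CON hippocampus, a log2 ratio of -0.06 (-0.10 to -0.02). Tuba1b had 3892 reads in F1m-GCS and 3880 in F1m-CON, a log2 ratio of 0.06 (-0.01 to 0.12). Tuba1c thus stood apart from Tuba1b, whose ratio had the same sign, and from Tuba1a, whose ratio had the other. On the scale of CPM, with library sizes scaled by TMM, Tuba1c was 4.65 higher and Tuba1b 5.14 higher in F1m-GCS, and Tuba1a differed by -17.0 between F1m-GCS and F1m-CON, so the difference in Tuba1c was no larger than that in Tuba1b and smaller than that in Tuba1a. The reads of Tuba1a, Tuba1b and Tuba1c summed to 16132 in F1m-GCS and 16976 in F1m-CON, a log2 ratio of -0.02 (-0.05 to 0.01). Tuba1c made up 1.21% of that sum in F1m-GCS (exact 95% interval 1.05% to 1.40%) and 0.342% in F1m-CON (0.260% to 0.441%). Tuba1b made up 24.1% in F1m-GCS and 22.9% in F1m-CON, and Tuba1a 74.7% in F1m-GCS and 76.8% in F1m-CON.

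The other 7 members in hippocampus were close to even. Tubb4a had 20833 reads in F1m-GCS and 20933 in F1m-CON, a log2 ratio of 0.05 (0.02 to 0.08), whose interval lay above 0 at this depth although the difference was 1.03-fold. Tuba8 had 262 reads in F1m-GCS and 257 in F1m-CON and a log2 ratio of 0.08 (-0.17 to 0.34), and Tubb2b had 4543 reads in F1m-GCS and 4896 in F1m-CON and a log2 ratio of -0.05 (-0.11 to 0.0048). Tubb3, with 7046 reads in F1m-GCS and 7414 in F1m-CON, and Tubb5, with 13246 in F1m-GCS and 13771 in F1m-CON, had log2 ratios of -0.02 and -0.0019. Tuba4a, with 11727 reads in F1m-GCS and 11986 in F1m-CON, and Tubb2a, with 13812 in F1m-GCS and 14202 in F1m-CON, had log2 ratios of 0.02 and 0.01. The interval lay above 0 for 2 members, Tuba1c and Tubb4a, and below 0 for Tuba1a, against 20.9% of all measured genes above 0 and 18.8% below. With the intervals shifted by the correction for coding length and GC content, 6 members lay above 0 (Tuba1b, Tuba1c, Tuba4a, Tubb2a, Tubb4a and Tubb5) and 0 below, so the call of Tuba1a does not outlast it. The median of the 10 members was 0.02, beside -0.0042 over all measured genes.

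Sums over the families were close to even under TMM scaling. Alpha-tubulin reads summed to 28121 in F1m-GCS and 29219 in F1m-CON hippocampus, a log2 ratio of -0.0011 (-0.02 to 0.02), and beta-tubulin reads to 59480 in F1m-GCS and 61216 in F1m-CON, a log2 ratio of 0.01 (-0.0036 to 0.03). Brain-enriched isotypes summed to 58278 reads in F1m-GCS and 60483 in F1m-CON, a log2 ratio of 0.00062, and widely expressed ones to 17334 in F1m-GCS and 17709 in F1m-CON, a log2 ratio of 0.02. All 4 intervals held 0 under TMM scaling. After the median of genes of like coding length and GC content was subtracted, the same sums were 0.035 (alpha), 0.046 (beta), 0.031 (brain-enriched) and 0.067 (widely expressed), each beyond its counting error, so their distance from 0 depends on that correction. The difference between the isotype groups was not tested. Among cell type markers, pan-neuronal genes had 11100 summed CPM in F1m-GCS and 11180 in F1m-CON hippocampus, and oligodendrocyte genes 6404 in F1m-GCS and 6721 in F1m-CON. Astrocyte genes summed to 4019 in F1m-GCS and 3869 in F1m-CON, and microglia genes to 304 in F1m-GCS and 330 in F1m-CON. The 6 choroid plexus markers summed to 1524 in F1m-GCS and 1770 in F1m-CON. All 6 had log2 ratios below 0, and 2 of 6 were at least 1.5-fold lower, against 0.911% of all measured genes. The part of these differences in the tubulin values was not tested.

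**Figure D4:**
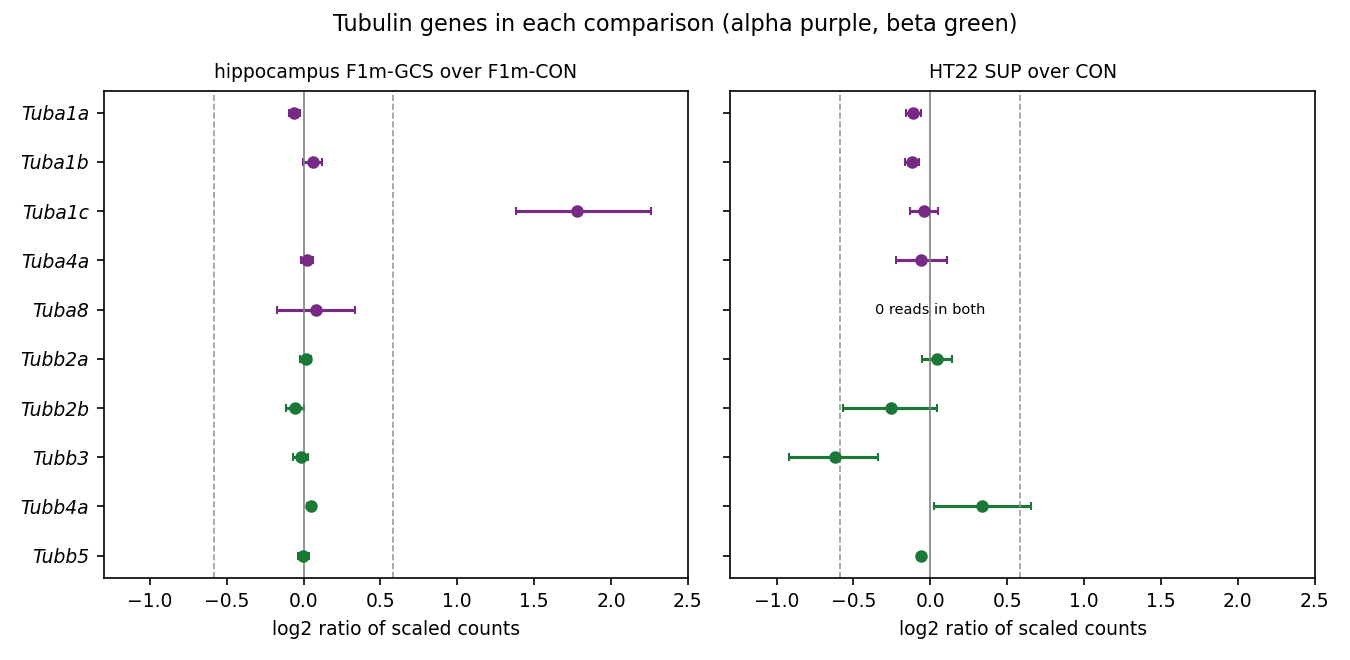
Log2 ratio of TMM-scaled counts (horizontal axis) with 95% counting intervals for each tubulin gene (vertical axis), F1m-GCS over F1m-CON hippocampus left and SUP over CON HT22 cells right, with dashed lines at 1.5-fold. Tuba1c at 1.78 in hippocampus and Tubb3 at -0.62 in HT22 are the points beyond a dashed line, and Tuba8 had 0 reads in both HT22 libraries.

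In HT22 the Tuba1c reads did not repeat the hippocampal pattern. Tuba1c had 1636 reads in SUP and 2359 in CON cells, a log2 ratio of -0.04 (-0.14 to 0.05), and its copies had log2 ratios of -0.11 (-0.16 to -0.06) for Tuba1a, with 5861 reads in SUP and 8855 in CON cells, and -0.12 (-0.16 to -0.07) for Tuba1b, with 6609 in SUP and 10025 in CON cells. Relative to Tuba1a, the RPKM of Tuba1c was 28.0% in SUP and 26.8% in CON cells, against 1.63% in F1m-GCS and 0.447% in F1m-CON hippocampus. Tuba1c took 11.6% of the reads of the 3 copies in SUP (11.1% to 12.1%) and 11.1% in CON cells (10.7% to 11.5%). Genes high in HT22 were also read in hippocampus. A class of 152 genes with at least 50 CPM in HT22 and under 1/100 of that in hippocampus was at 0.388% of the HT22 level in F1m-GCS and 0.360% in F1m-CON hippocampus. The cut that defines this class holds those values low, so Tuba1c is not compared with it. Of 521 genes measured in hippocampus and at least 10 times higher in HT22, 23 (4.41%) stood 1.5-fold or more above F1m-CON in the F1m-GCS library and 16 (3.07%) as far below, against 1.81% and 0.911% of all measured genes, with a median log2 ratio of -0.0098. The 521 genes were not matched for read depth to all measured genes, and counting error passes 1.5-fold more often at low counts. Nothing is read from the difference in these shares. The part of RNA from HT22-high genes in the Tuba1c values was not tested.

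Tubb3 was the one member of 9 measured in HT22 beyond 1.5-fold. It had 147 reads (5.20 RPKM) in SUP and 317 reads (9.33 RPKM) in CON cells, a log2 ratio of -0.62 with an interval of -0.92 to -0.34, which also held smaller differences than 1.5-fold. After the correction for coding length and GC content Tubb3 was at -0.57, short of 1.5-fold. Over 10854 measured genes, 2.93% were at least 1.5-fold lower in SUP cells and 5.13% at least 1.5-fold higher, beside 1 and 0 of the 9 members. Tubb4a lay the other way, with 162 reads in SUP and 179 in CON cells and a log2 ratio of 0.34 (0.02 to 0.66), and Tubb2b had 144 reads in SUP and 241 in CON cells and a log2 ratio of -0.26 (-0.57 to 0.05). The brain-enriched beta isotypes thus had ratios of both signs. Of 12 pan-neuronal markers 8 were measured, each at least 1.5-fold higher in SUP cells, and Stmn2, Nefl and Uchl1 reached 50 reads in SUP cells alone, where they were high. Of the other 4, Rbfox3 had 33 reads in SUP and 15 in CON cells and Nefm had 42 in SUP and 10 in CON cells. Gap43 had 26 reads in SUP and 29 in CON cells and Gad1 had 26 in SUP and 22 in CON cells. These reads are not scaled to depth, which was lower in SUP cells. All 12 together had sums of 211 CPM in SUP and 82.1 in CON cells. Tubb3, which is commonly used as such a marker, was lower in the same cells. A higher sum in SUP cells was not particular to the pan-neuronal list. Oligodendrocyte markers summed to 23.2 CPM in SUP and 11.3 in CON cells, astrocyte markers to 274 and 231, and immature neuron markers to 1.90 and 0.929. The measured astrocyte genes differed in direction, with Slc1a2 at a log2 ratio of 1.27 and Slc1a3 at -0.26. Dividing-cell markers summed to 3715 CPM in SUP and 3103 in CON cells, although 4 of these 6 genes had log2 ratios below 0 and 2 above. Microglia markers summed to 70.9 CPM in SUP and 71.5 in CON cells, and choroid plexus markers to 134 and 191. Most of the microglia sum was Tmem119, with 875 reads in SUP and 1262 in CON cells. Most of the choroid plexus sum was Aqp1, with 1729 reads in SUP and 3481 in CON cells. The other genes of these lists had between 0 and 29 reads in each HT22 library and differed in direction, so the sums do not describe them. The part of these differences in the values of Tubb3, Tubb2b and Tubb4a was not tested.

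The abundant isotypes of HT22 differed little. Tubb5 had 32422 reads in SUP and 47310 in CON cells, a log2 ratio of -0.06 (-0.08 to -0.04). Tubb2a had 1459 reads in SUP and 1979 in CON cells and a log2 ratio of 0.04 (-0.05 to 0.14), and Tuba4a had 503 in SUP and 733 in CON cells and a log2 ratio of -0.06 (-0.23 to 0.11). Intervals lay below 0 for 4 of 9 members, Tuba1a, Tuba1b, Tubb3 and Tubb5, and above 0 for Tubb4a, against 32.7% of measured genes below 0 and 22.4% above. With the intervals shifted by the same correction, 3 members lay below 0 (Tuba1a, Tuba1b and Tubb3) and 2 above (Tubb2a and Tubb4a). Their median of -0.06 stood beside -0.05 over all measured genes. Alpha reads summed to 14609 in SUP and 21972 in CON cells, a log2 ratio of -0.10 (-0.13 to -0.07), and beta reads to 34334 in SUP and 50026 in CON cells, a log2 ratio of -0.06 (-0.08 to -0.04). The beta ratio was 0.0020 when the median of genes of like coding length and GC content was subtracted, so its sign depends on that correction. Brain-enriched isotypes, with 7773 reads in SUP and 11571 in CON cells, had a log2 ratio of -0.09, and widely expressed ones, with 40667 in SUP and 59694 in CON cells, one of -0.07.

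The authors' deposited table gives log2 fold changes for hippocampus close to those of the counts, with a median absolute difference of 0.00017 over 13392 genes. For Tuba1c the authors' deposited table gives 1.81, beside 1.78 from the counts with a prior count of 2. For HT22 the authors' deposited table gives 0.15 for Tubb5, 0.12 for Tuba1c, 0.05 for Tuba1b, -0.41 for Tubb3 and 0.15 for Tubb4a, which are not the ratios of the deposited counts. Over 10854 measured genes of HT22 the median absolute difference between that table and the counts was 0.07 on the log2 scale, and 6.64% of genes had the opposite sign. These include 3 of the 9 measured members, Tubb5, Tuba1c and Tuba1b. The sources used here do not say how the deposited HT22 fold changes were made.

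Other genes of the tubulin pathway were read from fixed lists. Tubulin folding cofactors, which assemble the dimer, had 0 of 7 beyond 1.5-fold in hippocampus with a median log2 ratio of -0.15, and the farthest was Tbca, which binds beta-tubulin, with 277 reads in F1m-GCS and 415 in F1m-CON and a log2 ratio of -0.53 (-0.75 to -0.31). Chaperonin and prefoldin subunits, which fold new tubulin, had 0 of 13 beyond 1.5-fold and a median of -0.08, with Pfdn5 at -0.31. Tubulin modifying enzymes had 0 of 19 and a median of 0.08, and microtubule binding proteins 0 of 30 and a median of 0.03. The farthest of the last list was Dcx, which encodes doublecortin, with 1077 reads in F1m-GCS and 774 in F1m-CON and a log2 ratio of 0.53 (0.40 to 0.67). Dcx is also an immature neuron marker, and the 6 genes of that list had 0 beyond 1.5-fold, a median of 0.03 and sums of 300.4 CPM in F1m-GCS and 282 CPM in F1m-CON. Of 6 other tubulins measured none was beyond 1.5-fold, with Tubd1, a delta-tubulin of centrioles, at -0.34 and Tubb4b at -0.0035.

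In HT22, microtubule binding proteins had 8 of 28 measured at least 1.5-fold higher in SUP cells and 0 lower, with a median log2 ratio of 0.25, against 5.13% of all genes higher. After the correction for coding length and GC content the count was 7 and the median 0.11. The farthest were Stmn4 and Stmn2, stathmins that bind free tubulin dimers, at 1.89 with 60 reads in SUP and 21 in CON cells and at 1.61 with 71 in SUP and 31 in CON cells. Both reached the minimum of 50 reads in SUP cells alone, where they were high, so their place in the count is partly set by that minimum. Mapt, which encodes tau, had 108 reads in SUP and 52 in CON cells and a log2 ratio of 1.498, and Map2 had 530 in SUP and 278 in CON cells and a log2 ratio of 1.41. Stmn2 and Map2 are also on the pan-neuronal list, of which 8 of 8 measured were at least 1.5-fold higher. Of those 8, Stmn2, Nefl and Uchl1 passed the minimum through SUP cells alone, and 4 of the 12 listed genes were not measured. The count of microtubule binding proteins is therefore not read as particular to microtubule genes. Map1b, also among the microtubule binding proteins counted as higher, had more reads, 4665 in SUP and 2772 in CON cells. Its log2 ratio was 1.23, or 0.87 after the correction for coding length and GC content. The stathmins named above, Mapt and Map2 were low in HT22. Stmn4 had 4.41 RPKM in SUP and 1.28 in CON cells, against 255 in F1m-GCS and 263 in F1m-CON. In the same order Stmn2 had 6.29, 2.29, 607 and 640 RPKM, Mapt 2.30, 0.920, 192 and 188, and Map2 4.62, 2.02, 162 and 140. Folding cofactors had 0 of 7 beyond 1.5-fold and a median of 0.03, chaperonin and prefoldin subunits 0 of 13 and a median of -0.06, modifying enzymes 0 of 16 and a median of -0.02, and other tubulins 0 of 5, with Tubd1 at -0.56, Tubb4b at 0.06 and Tubb6 at 0.04. No test of a difference between these lists was made. After the correction for coding length and GC content the hippocampal medians were -0.09 (cofactors), -0.06 (chaperonin and prefoldin), -0.0042 (modifying enzymes), 0.0048 (binding proteins) and 0.03 (other tubulins), and in HT22 those of the cofactors, the chaperonin and prefoldin subunits and the modifying enzymes were -0.01, 0.04 and -0.02, so signs near 0 depend on it.

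Likeness of pattern over the 4 libraries was taken as the Euclidean distance of centred log2 CPM. It was computed among 13413 genes, with Gm and Rik symbols left out. Genes with a pattern most like that of Tuba1c were Xkr5 (distance 0.175), Hist1h4d (0.415), Zfp52 (0.440), Apol7a (0.460) and Zfp820 (0.501). Of these Zfp52 had counts near those of Tuba1c, with 154 reads in F1m-GCS, 62 in F1m-CON, 1200 in SUP and 1746 in CON cells, and the other 4 had between 0 and 25 reads in each hippocampus library. The genes most like Tubb3 were Leprel1 (0.0923), Syt12 (0.0943), Pnma3 (0.0985), Dpf1 (0.125) and Exoc6 (0.125). Pnma3 had 1160 reads in F1m-GCS, 1276 in F1m-CON, 25 in SUP and 50 in CON cells. Leprel1 had 1 read in SUP and 3 in CON cells, and Syt12 had 14 in SUP and 29 in CON cells. Their distances to Tubb3 thus rest on few HT22 reads and on the prior count. With 4 libraries such likeness says no more than that the levels were high and low in the same samples.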

How the data were processed

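Poly(A)-selected RNA of 4 mouse libraries was sequenced in paired-end mode, per the labels' protocols. Reads were trimmed with Trim Galore, aligned to mm10 with TopHat2 (up to 2 mismatches, mapping quality of at least 4), counted with HTSeq and compared with edgeR, per the series' design text. The submitters' processing notes also name CASAVA 1.8 but not what it did. The count columns are the authors' raw uniquely mapped reads per gene, per the file headers. RPKM, as deposited, divides those reads by coding kilobases and by the uniquely mapped total (in units of 1000000) stated in the file headers. The authors also deposited edgeR log2 fold changes, compared here with the counts, and p-values, which were not used.

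Counts were scaled with TMM in edgeR 4.0.16 (R 4.3.3). Log2 ratios used a prior count of 2, with exact conditional (Clopper-Pearson) 95% intervals computed with scipy 1.17.1, and shares have exact Clopper-Pearson intervals. Reads are not independent molecules, so intervals and limits cover counting error only. A gene was measured with at least 50 reads in 1 of 2 libraries. Coding sequences and transcripts came from GENCODE M21 (mm10); windows were searched in transcripts selected with blastn 2.17.0, leaving out genes that overlap the member's own place, and sequences were aligned with Biopython. Sequences of the alpha-tubulin genes are not reported here. Gene spans are those of the deposited tables. Alternatives were DESeq2 1.42.0 size factors, plain totals, other prior counts, other read minimums and a correction over 10 groups of coding length and 5 of GC content.

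The members and lists were chosen with earlier results of these data known. Named genes are the 10 members, up to 4 genes of each tubulin pathway list with log2 ratios farthest from 0, and the 5 genes nearest to Tuba1c and to Tubb3. Tubb4b and Tubb6 are also named for their level, and Map1b, Zfp52, Pnma3, Leprel1 and Syt12 with their reads, chosen after their values were seen. Cell type markers are named as examples of a list, for the effect of the read minimum, or for their part in a sum. They too were picked with their values known. Stk16 and Gm49450 are named for position or sequence. With 1 library a group, no test of the conditions was made.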

Additional observations from a re-analysis of the deposited data

How the results depend on the processing

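No paired analysis was possible because each group had 1 library. For the same reason no library could be left out. The log2 ratio of Tuba1c in hippocampus lay between 1.65 and 1.81 under the 6 alternatives, but no member was counted at least 1.5-fold higher (0 in place of 1) with a minimum of 200 reads, since Tuba1c has fewer. The count of members at least 1.5-fold lower in HT22 was 0 after the correction for coding length and GC content, where Tubb3 was at -0.57, and 0 where the whole interval had to lie beyond 1.5-fold. That correction gave hippocampal sums of 0.035 (alpha), 0.046 (beta), 0.017 (Tuba1a, Tuba1b and Tuba1c), 0.031 (brain-enriched), 0.067 (widely expressed) and 0.042 (all 10), and HT22 sums of -0.044, 0.0020, -0.046, -0.029, -0.0091 and -0.012 in that order. The beta sum of HT22 thereby changed sign from -0.06, and the cause was not tested. Scaling by the uniquely mapped reads of the file headers, added after seeing the data, moved the median of all measured genes in HT22 by -0.22 and gave HT22 sums of -0.32, -0.28, -0.32, -0.31, -0.29 and -0.29 in the same order. In hippocampus it gave -0.0060 for the beta sum, -0.018 for the brain-enriched sum and -0.010 for all 10. The share of Tuba1c windows held by other genes was 100% with 50-base windows, 80.4% without mismatches and 64.5% over the whole transcript, the last added after seeing the data. Shares of reads and shares of RPKM differed by at most 1.36 percentage points over 40 shares. Of 72 sums recomputed under alternatives 9 had the other sign, 1 of them with a main interval that left out 0 (the HT22 beta sum) and the other 8 with main hippocampal intervals that held 0. Among the latter are the alpha sum and the sum of the Tuba1 copies under the correction, and the beta, brain-enriched and all-member sums under the headers' reads. Depth limits Tuba1c (58 reads in F1m-CON) and Tubb3, Tubb2b and Tubb4a in HT22 (between 144 and 317 reads).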
